A study of Drosophila melanogaster with 28 samples.

Results

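Very long genes were taken as the protein-coding genes whose longest annotated transcript spans at least 50000 nt in the Pol II count table, leaving out chromosome 4 and the Hox genes Antp, Ubx, Dfd, Scr and Abd-B. This rule uses annotation only, and it gave 304 of 13824 protein-coding genes, or of 17588 genes in the table. RNA polymerase II (Pol II) occupancy had been measured by ChIP-seq of its core subunit Rpb3 in Drosophila embryos of stage 5, when the zygotic genome is activated. Ctrl embryos carried the genotype labelled t180 and DomKD embryos the genotype labelled t216, and there were 2 libraries of each. Per the study's methods, TRiP line females were mated to males with a germline Gal4 driver (mat-alpha-Gal4), and the daughters, in whose germline the hairpin acts, laid the eggs. The TRiP line was a control line or one with a short hairpin RNA against domino, so that the depletion is of the maternal supply. Domino is a chromatin remodelling ATPase, known for putting the variant histone H2A.Z into nucleosomes. The question was which long genes carried Pol II above background in Ctrl embryos, and how their counts compared in DomKD embryos.

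A gene of this size sets Pol II a long task. The cycles before cellularisation are too short for a polymerase to reach the end of a very long gene, and many of the first zygotic genes are short and have few introns. Interphase lengthens at stage 5, which gives a polymerase more time on a long gene. Long genes of Drosophila often have several alternative starts, they often hold smaller genes in their introns, and many code for receptors, adhesion molecules, ion channels and transcription factors of the nervous system.

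A long gene was called occupied by Pol II when the density over its whole span was at least 2 times background (the most frequent density over the genes of a library) in both Ctrl libraries. In 23 of the 42 occupied long genes the annotated transcript with the highest density over its span started at least 2000 nt inside the gene. The windows around both starts are shown for toc, btsz and prage, because these are the 3 of the 23 in which that inner start had the TAGteam motif nearby. toc (toucan) codes for a microtubule-associated protein, and btsz (bitesize) for a synaptotagmin-like protein that organises actin at the apical side of epithelial cells. The windows run from 240 bases before to 10 bases into the annotated transcript, 5′ to 3′ (assembly dm6, from RefSeq). They lie at chr2L:3144777-3145026 and chr2L:3072362-3072611 for toc (minus strand), at chr3R:14875479-14875728 and chr3R:14817937-14818186 for btsz (minus strand), and at chrX:1773479-1773728 and chrX:1823922-1824171 for prage (plus strand). Capitals mark matches, on either strand, to the TAGteam motif CAGGTAG bound by the pioneer factor Zelda (CTACCTG on the other strand), to GAGAG, the core bound by GAGA factor (CTCTC), and to TATCGAT, the core of the DNA replication-related element DRE (ATCGATA). They also mark the initiator letters TCAGT on the sense strand within 10 bases of the start. The letters TATCGATA hold the DRE core on both strands, and the motifs do not share letters otherwise.
toc outer start: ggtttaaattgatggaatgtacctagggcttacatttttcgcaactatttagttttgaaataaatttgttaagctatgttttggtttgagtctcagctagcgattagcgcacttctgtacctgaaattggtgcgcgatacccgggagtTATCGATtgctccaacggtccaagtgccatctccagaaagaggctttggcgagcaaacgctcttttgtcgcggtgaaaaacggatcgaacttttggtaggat
toc inner start: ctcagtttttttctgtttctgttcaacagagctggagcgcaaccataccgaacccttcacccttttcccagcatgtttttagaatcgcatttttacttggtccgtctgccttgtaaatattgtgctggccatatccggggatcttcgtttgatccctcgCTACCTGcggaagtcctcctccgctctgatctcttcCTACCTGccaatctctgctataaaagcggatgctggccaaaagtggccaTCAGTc
btsz outer start: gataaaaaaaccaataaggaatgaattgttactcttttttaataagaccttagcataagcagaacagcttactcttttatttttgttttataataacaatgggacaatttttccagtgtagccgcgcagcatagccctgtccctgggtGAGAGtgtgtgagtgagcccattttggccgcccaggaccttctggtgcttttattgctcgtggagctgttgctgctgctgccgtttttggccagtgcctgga
btsz inner start: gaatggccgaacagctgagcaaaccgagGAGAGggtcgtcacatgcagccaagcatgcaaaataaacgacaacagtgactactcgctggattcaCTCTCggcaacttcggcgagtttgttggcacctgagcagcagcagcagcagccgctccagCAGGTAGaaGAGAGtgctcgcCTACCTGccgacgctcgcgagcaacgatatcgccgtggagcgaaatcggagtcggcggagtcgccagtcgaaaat
prage outer start: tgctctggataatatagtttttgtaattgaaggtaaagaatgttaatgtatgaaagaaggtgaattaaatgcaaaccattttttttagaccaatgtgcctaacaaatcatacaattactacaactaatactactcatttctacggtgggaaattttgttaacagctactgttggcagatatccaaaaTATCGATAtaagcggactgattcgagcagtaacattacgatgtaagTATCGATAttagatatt
prage inner start: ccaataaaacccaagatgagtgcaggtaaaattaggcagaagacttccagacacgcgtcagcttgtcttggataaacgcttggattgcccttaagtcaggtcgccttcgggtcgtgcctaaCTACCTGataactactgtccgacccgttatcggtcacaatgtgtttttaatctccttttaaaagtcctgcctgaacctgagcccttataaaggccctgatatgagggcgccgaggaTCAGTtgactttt
The inner starts lie 72415 nt (toc), 57542 nt (btsz) and 50443 nt (prage) downstream of the outer ones. The outer windows of toc and prage hold the DRE core and their inner windows hold TAGteam. For btsz both windows hold GAGAG and the inner one holds TAGteam as well.

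Counted over all long genes, the motifs were searched between 250 bases before and 50 bases after the start of the longest transcript. GAGAG stood near the start of 153 of the 304 long genes (50.3%), against 29.9% of 13807 protein-coding genes. The initiator letters TCAGT stood near 74 starts (24.3%), against 11.8%. The DRE core, which is known from housekeeping promoters, stood near 28 (9.21%), against 18.1%, and TAGteam near 2 (0.658%), against 1.62%. The DRE core stood near 9 of the 42 occupied long genes (21.4%) and near 19 of the 262 that were not occupied (7.25%), and over occupied protein-coding genes its share was 28.7%. Of the 42 occupied long genes 0 had TAGteam at the outer start. Of the 23 inner starts 3 had TAGteam (13.0%), against 1.69% of the 19068 annotated starts of protein-coding genes. Over occupied protein-coding genes, at the start of the longest transcript, the share was 2.49%. The 23 inner starts were picked by their Ctrl density, so that the 3 are a description, and the difference was not tested. GAGAG stood near 12 of the 23 inner starts and near 8 of their outer starts. The DRE core stood near 2 of the 23 inner starts and near 5 of their outer starts. At the start of the densest transcript of each of the 42 occupied long genes it stood near 6 (14.3%). These are matches of letters, and annotated starts need not be the ones used in the embryo.

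Before levels are compared, one library has to be set apart. Density was counted as counts per 1000000 reads in genes (CPM) per kb of span, and the background of a library was the most frequent density over its genes. This background was 4.64 and 4.21 CPM per kb in Ctrl replicates 1 and 2 and 4.39 in DomKD replicate 1, but 7.01 in DomKD replicate 2. At background a 50 kb gene held between 1758 and 3248 reads, and most reads of the long genes were background. Some long genes held far fewer reads, such as stol with between 231 and 495. On the X chromosome the most frequent density was between 0.700 and 0.804 of that on the autosomal arms. Reads in genes came to between 8344397 and 12049039 per library. The long genes held 16.4% and 16.1% of them in Ctrl and 18.2% and 20.5% in DomKD, and background alone over their spans would give 14.1%, 12.8%, 13.3% and 21.2%.

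Of the 304 long genes, 42 were occupied (13.8%), against 43.4% of protein-coding genes. The share was 45.4% of the genes under 5 kb, 48.9% from 5 to 10 kb, 36.4% from 10 to 20 kb and 23.6% from 20 to 50 kb. Of 85 long genes of at least 100 kb 8 were occupied, and of 13 genes of at least 200 kb 0 were. The median long gene was just under background, at 0.884 and 0.927 times in the Ctrl libraries. Counts over a whole span average over the introns, so that a short stretch with much Pol II is diluted in proportion to the span.

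**Figure D1:**
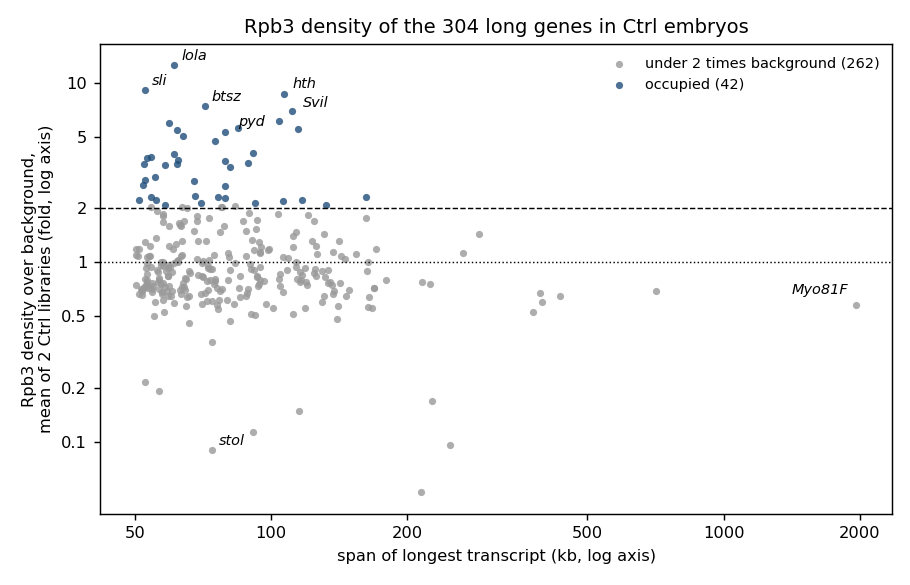
Rpb3 density over background (fold, mean of the 2 Ctrl libraries, log axis) against the span of the longest transcript (kb, log axis) for the 304 long genes, with 42 occupied genes in blue and 262 others in grey. The dashed line is 2 times background and the dotted line is background. The occupied genes reach 12.5 times background, and the 13 genes of 200 kb and over lie under the dashed line.

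The 3 longest genes, Myo81F (chr3R:567076-2532932, a myosin heavy chain), Pzl (chr3R:2554162-3263582, Piezo-like) and lovit (chr3L:25236940-25670980, a transporter of the visual system), lie next to centromeres. Their densities were 0.567 and 0.586, 0.670 and 0.713, and 0.632 and 0.670 times background in the 2 Ctrl libraries. Of 27 long genes close to a centromere 0 were occupied, as were 0 of 6 on the Y chromosome, whose highest mean was 0.191 times background. No separate background was set for the Y chromosome or for regions near centromeres, so that these counts do not compare such genes with their surroundings. On the autosomal arms 37 of 203 were occupied, and on the X arm 5 of 68. With separate backgrounds for X and autosomes 43 genes in all passed in place of 42. At the length limit itself, the shortest long genes Sytbeta (a synaptotagmin, 50283 nt) and ab (abrupt, a zinc finger factor, 50403 nt) had 1.12 and 1.25, and 1.06 and 1.13 times background in Ctrl. Just under the limit, Octalpha2R (an octopamine receptor, 49945 nt) had 0.766 and 0.739, and NetA (the guidance cue Netrin-A, 49917 nt) had 2.53 and 2.85.

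By list, the share of long genes with Pol II ran from 46.2% to 0, around the 13.8% of all 304. On the list of signalling receptors, ligands and kinases 6 of 13 were occupied, and 9 of 20 embryonic patterning genes of stage 5 were (45%). The 6 include the densest genes of that list, pyd and sdt, which are described below as scaffolds. The share without them was not computed. The patterning list was drawn up for the assayed stage, so that its share was partly set by that choice. On the list of transcription and chromatin factors 8 of 32 were occupied (25%), and on that of cell adhesion and axon guidance molecules 7 of 56 (12.5%). The counts were 2 of 21 for regulators of the cytoskeleton and polarity, 1 of 15 for RNA-binding proteins and 0 of 29 for ion channels and neurotransmitter signalling. The lists were drawn up from general knowledge and are not complete. The occupied genes btsz, Svil and sdt, described below by their part in actin or polarity, do not stand on the cytoskeleton and polarity list, so that its share is low in part by that choice. The differences between lists were not tested. A gene can stand on more than 1 list, and 138 long genes stood on none, of which 18 were occupied. The highest ion channel gene was nAChRalpha3, an acetylcholine receptor subunit, at 1.28 and 1.38 times background. Among RNA-binding proteins msi (musashi) had 2.03 and 2.26, and Syp (Syncrip) had 1.17 and 1.29.

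The 3 long genes with the highest Ctrl density were lola, sli and hth. The gene lola (chr2R:10482207-10543291), a family of BTB zinc finger factors made by alternative splicing, had 11.7 and 13.2 times background in Ctrl, and 17.4 and 7.25 in DomKD. The gene sli (chr2R:15869495-15922118), the secreted guidance cue Slit, had 8.51 and 9.68 in Ctrl and 13.8 and 6.27 in DomKD. The gene hth (chr3R:10507561-10614276), a homeodomain cofactor of Hox proteins, had 8.22 and 9.09 in Ctrl and 12.1 and 5.13 in DomKD. In each of these 3 genes DomKD replicate 1 was above both Ctrl libraries and DomKD replicate 2 was below both.

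The same order of the libraries held for btsz, Svil, pyd, sdt and ed. The densities of btsz were 6.84 and 7.88 times background in Ctrl and 11.1 and 5.14 in DomKD. Svil, which codes for the actin-binding protein supervillin, had 6.53 and 7.40, and 10.2 and 4.62. The junction scaffold pyd (polychaetoid) had 5.78 and 6.45, and 8.09 and 3.68. The polarity scaffold sdt (stardust), a partner of Crumbs, had 5.04 and 5.84, and 7.86 and 3.32, and was the highest on the X chromosome. The adhesion molecule ed (echinoid) had 5.20 and 5.98, and 7.43 and 3.48.

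The Ctrl values of lola did not overlap those of sli, while sli and hth overlapped. From psq down to tinc, neighbours in the order differed in mean by less than the Ctrl libraries of 1 gene did, with the exception of nmo and bun. The Ctrl values were 5.64 and 6.31 for psq (pipsqueak, a DNA-binding BTB protein), 5.18 and 5.87 for Ten-m (a teneurin adhesion receptor), 4.98 and 5.57 for pros (the neural homeodomain factor Prospero) and 4.69 and 5.38 for the immunoglobulin receptor Dscam1. They were 4.45 and 5.05 for the kinase nmo (nemo), 3.81 and 4.25 for bun (bunched, of the TSC22 family) and 3.73 and 4.25 for tinc (tincar, a membrane protein). Ctrl replicate 2 was the higher of the Ctrl pair in all of these, by less than the step from either Ctrl library to DomKD replicate 2. The last genes to pass the limit, Smr and Ptp61F, had 2.01 and 2.17, and 2.01 and 2.16 times background, and the first to miss it, Trim9 and rdx, had 1.95 and 2.16, and 1.92 and 2.14.

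**Figure D2:**
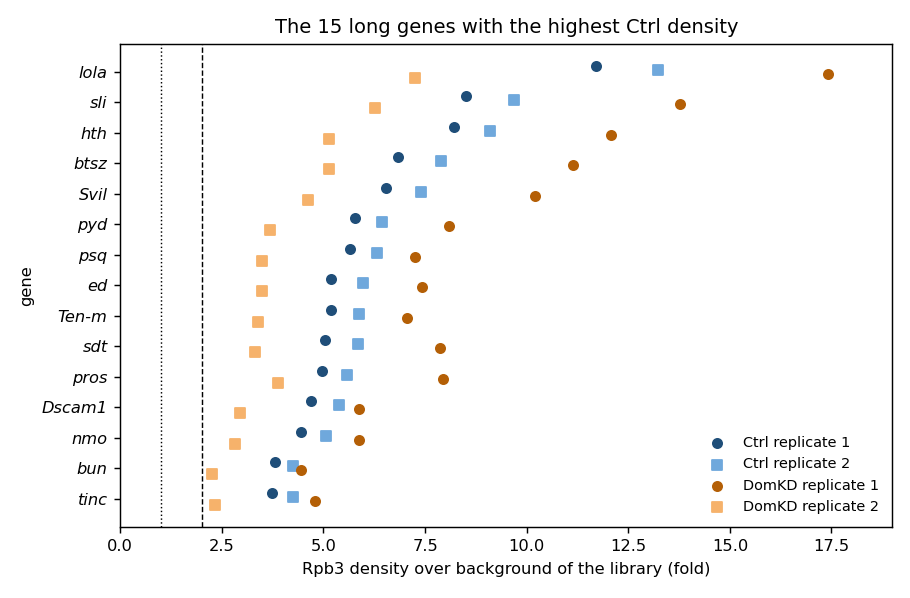
Rpb3 density over the background of the library (fold, horizontal axis) in each of the 4 libraries for the 15 long genes with the highest Ctrl density. Circles are replicates 1 and squares are replicates 2. The orange circles of DomKD replicate 1 lie right of both Ctrl points and the light squares of DomKD replicate 2 left of them, for example 17.4 and 7.25 around 11.7 and 13.2 for lola.

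Part of these reads lay over smaller genes inside the long ones. Reads were counted without strand and added to each gene they touched, and 233 of the 304 long genes held 822 smaller genes, up to 22 in 1 gene. In Ctrl replicate 1 the reads over the nested gene KP78a, a kinase gene, made up 45.4% of those of pros. Those over the non-coding RNA gene CR45962 made up 76.6% of those of Ten-m. The nested gap gene Kr (Krüppel) held 54.0% of the reads of CG9380 and had 16.2 and 17.9 times background in Ctrl, and mira (miranda, a neuroblast adaptor protein) held 48.3% of those of Hs6st and had 40.3 and 45.1. The nested gene rho (rhomboid, a protease that releases EGF receptor ligands) held 28.4% of the reads of Ptp61F. With the reads and spans of nested genes taken off, 36 long genes were occupied. Hs6st, CG34355, jvl, sick, CG9380, Smr and Ptp61F were then lost, pros and Ten-m stayed at 2.97 and 3.23, and 2.46 and 2.81 times background, and twi was gained.

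Within the occupied genes Pol II often lay over a part of the span. Transcripts of 1 gene that share their 3′ end but start further in make it possible to take reads of the shorter from those of the longer one, which leaves the outer piece. Of 21 occupied genes with such an outer 5′ piece of at least 2000 nt, 15 had a lower density there than in the rest in both Ctrl libraries (14 in all 4 libraries), and in 13 the outer piece was under 2 times background. In toc the first 36644 nt had 0.847 and 0.855 times background in Ctrl, while the 3071 nt transcript near its 3′ end had 28.7 and 32.7. In pyd the first 74235 nt had 1.31 and 1.49, and the inner 18792 nt had 19.7 and 22.03. In prage the first 50443 nt had 1.03 and 1.08, and the inner 28772 nt had 4.31 and 4.58. The first 40435 nt of lov, a BTB factor, had 0.994 and 1.08, against 11.8 and 13.5 for the 12781 nt that follow.

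In these 4 genes the outer piece was thus under 2 times background in each of the 4 libraries, while the inner part was above it. The 2004 nt transcript of twi, the mesoderm factor Twist, had 16.1 and 19.1 times background in Ctrl and 25.1 and 11.03 in DomKD. Its long annotated form starts 60948 nt upstream, and the first 60734 nt of that form had 1.05 and 1.08 in Ctrl and 1.20 and 1.04 in DomKD, so that twi as a whole span was not occupied. With twi, 14 long genes that missed the limit over the whole span had a shorter transcript that passed it (mtd, pnt, GEFmeso, Glut4EF, ths, CG1677, CenG1A, fz2, Ten-a, bbg, Tlk, rl and mtgo), which makes 56 of 304 by either measure. Taking the densest of several transcripts can only raise the count. It was not done for the other protein-coding genes, so there is no share to set beside the 56. In the teneurin gene Ten-a the first 84588 nt had 0.596 and 0.656 times background in Ctrl, the next 75512 nt had 0.508 and 0.587, and the 26125 nt piece that follows had 5.58 and 6.63.

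Not all genes had the empty piece at the 5′ end. In hth, annotated with 1 start and several ends, the first 28993 nt had 21.3 and 23.4 times background in Ctrl and a 71559 nt piece further on had 3.07 and 3.45. In lola the 3′ piece of 25036 nt had 5.90 and 6.56, against 15.8 and 17.9 for the 36049 nt before it. Of 13 occupied genes with such a 3′ piece 8 had a lower density there in both Ctrl libraries, and 5 were under 2 times background. Fold over background in these pieces mixes Pol II at the start with Pol II that is elongating, which whole-span counts cannot separate.

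**Figure D3:**
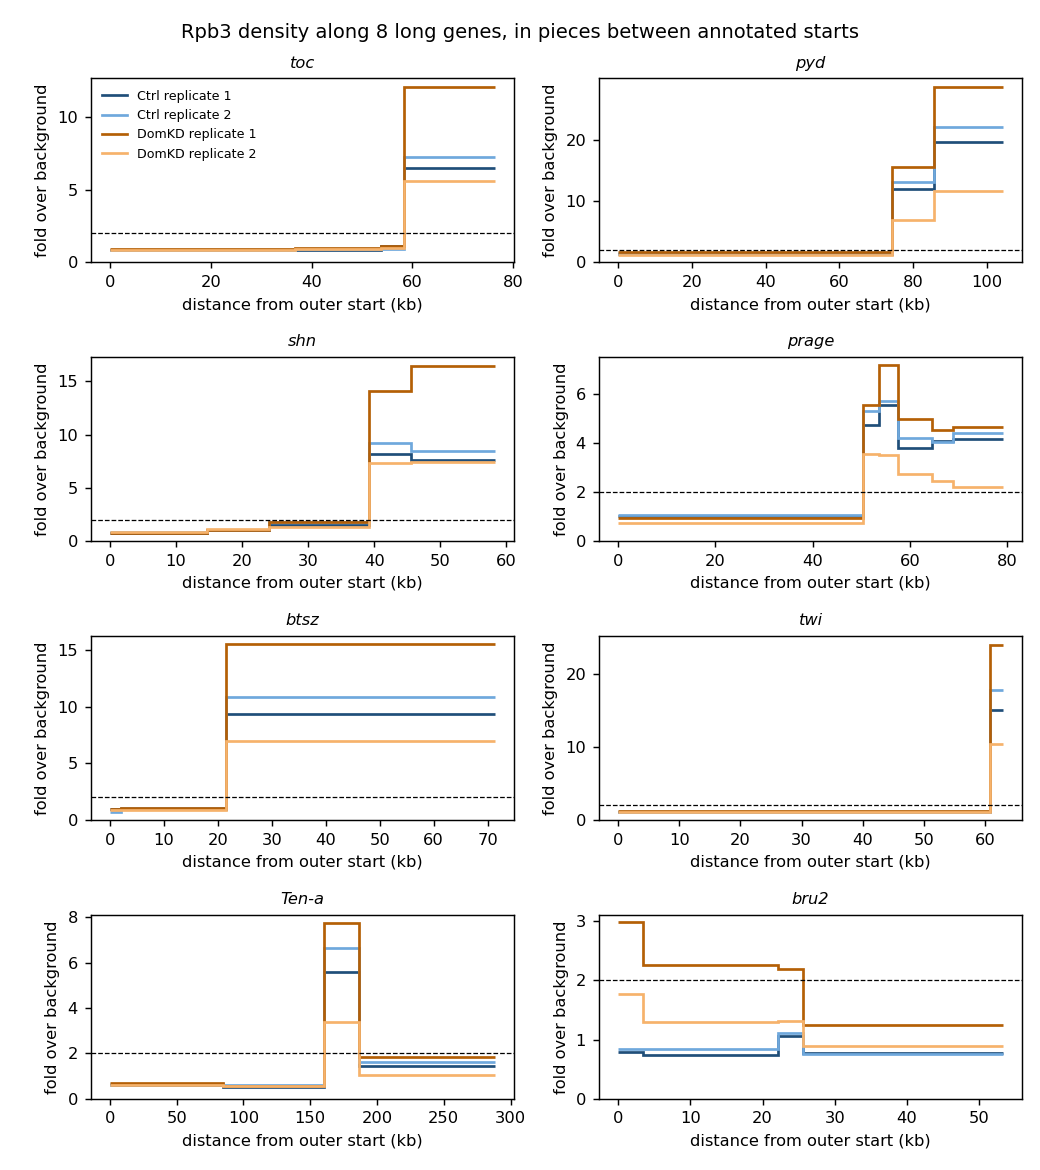
Rpb3 density (fold over background of the library, vertical axis) along 8 long genes, against the distance from the outermost annotated start (kb), in steps between starts of transcripts that share the 3′ end; each colour is 1 of the 4 libraries and the dashed line is 2 times background. In toc, pyd, shn, prage, btsz and twi the outer part is near background in all 4 libraries and the inner part is above it. In bru2 the 2 DomKD lines lie above the Ctrl lines over the first 25617 nt, and over the last piece as well.

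DomKD and Ctrl were then compared over all 16513 genes with enough reads, with the likelihood ratio test of edgeR, TMM scaling and Benjamini-Hochberg adjustment at 0.05. All 304 long genes were tested. Of these, 0 were called lower in DomKD, against 12.7% of all tested genes, and 3 were called higher, against 2.46%. At an unadjusted p under 0.05 the counts were 0 lower, against 20.3% of all genes, and 33 higher (10.9%), which is close to the 10.7% of all genes. By the quasi-likelihood test of edgeR 0 were lower and 1 was higher, against 10.5% and 1.33% of all genes, and by DESeq2 0 and 2, against 6.72% and 0.297%. The median log2 fold change was 0.33 for the long genes and 0.071 for all genes. With 2 libraries per group the counts rest on single libraries. Without DomKD replicate 1 there were 19 lower and 239 higher, against 31.6% and 21.9% of all genes. Without DomKD replicate 2 there were 3 and 175, against 18.5% and 11.2%. Without Ctrl replicate 1 there were 0 and 0, against 1.59% and 0.0727%, and without Ctrl replicate 2 also 0 and 0, against 0.806% and 0.0182%. The p-values measure the spread between these libraries, which the study's methods describe as biological replicates. In whole embryos fewer nuclei with Pol II on a gene and less Pol II per nucleus cannot be told apart.

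The 3 genes that rose were bru2, shn and stol. The gene bru2 (chr2L:12344219-12397528), an RNA-binding protein of the Bruno family, had 188 and 182 CPM (TMM-scaled) in Ctrl and 466 and 386 in DomKD. Both DomKD libraries were above both Ctrl libraries, the mean was 185 ± 4.40 (SD, n = 2) against 426 ± 57.1 (SD, n = 2), and the log2 fold change was 1.20 (SE 0.23, adjusted p 3.2e-05, edgeR). In Ctrl bru2 was not occupied, at 0.774 and 0.813 times background, and it reached 1.78 and 1.12 in DomKD. The gain was largest at the 5′ end. The first 3522 nt went from 0.787 and 0.840 to 2.99 and 1.77 times background, the next 18625 nt from 0.731 and 0.835 to 2.26 and 1.30, and the last 27693 nt from 0.766 and 0.757 to 1.24 and 0.889. A nested gene, CG17010, held 2.77% of the reads of bru2 in Ctrl replicate 1. The call was lost without Ctrl replicate 1 or 2 (adjusted p 0.113 and 0.182) and with libraries set to equal background (0.0945).

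The gene shn (chr2R:11159086-11217394), the zinc finger factor Schnurri of the Dpp pathway, was the occupied gene among the 3. It had 880 and 901 CPM in Ctrl and 1715 and 1193 in DomKD, and its log2 fold change was 0.71 with an SE of 0.25 (adjusted p 0.041, edgeR). Relative to background it had 3.31 and 3.68 in Ctrl and 5.97 and 3.17 in DomKD, so that on this scale DomKD replicate 2 was under both Ctrl libraries. The reads above background stood over the inner 19119 nt, with 7.78 and 8.74 times background in Ctrl and 15.7 and 7.41 in DomKD, while the first 14717 nt had 0.756 to 0.818 in the 4 libraries. The gene stol (chr2L:15644183-15718272), an alpha2-delta subunit of calcium channels, had 30.5 and 27.6 CPM in Ctrl and 38.1 and 49.2 in DomKD (log2 fold change 0.59, SE 0.21, adjusted p 0.036, edgeR). It lay at 0.0902 and 0.0887 times background in Ctrl and at 0.105 and 0.103 in DomKD, one of the lowest densities of the 304. The call rests on few reads, 374 and 231 in Ctrl and 355 and 495 in DomKD. Its nested genes, over 7436 nt, held 0% of these reads in each library. Why so few reads lay over stol was not tested. The next in order, toc, did not pass, with 768 and 766 CPM in Ctrl, 1347 and 988 in DomKD and an adjusted p of 0.079 (edgeR). By the quasi-likelihood test shn and stol were not called (adjusted p 0.116 and 0.0533), and neither was called without Ctrl replicate 1 or 2 (adjusted p 0.454 and 0.528 for shn, 0.352 and 0.575 for stol).

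The other occupied genes parted the DomKD libraries. None of the 15 long genes with the highest Ctrl density was called, with log2 fold changes between 0.047 and 0.48 and adjusted p between 0.199 and 0.910. All 15 were above the Ctrl mean in DomKD replicate 1, by 0.31 to 0.77 on the log2 scale, and in DomKD replicate 2 they lay between -0.28 and 0.12. Over the 42 occupied genes the median was 0.47 in DomKD replicate 1 (41 above the Ctrl mean) and -0.085 in DomKD replicate 2 (12 above). In the same 2 libraries 131 and 50 of 165 occupied genes of 20 to 50 kb were above it. The counts were 1963 and 607 of all 6742 occupied genes, and 8473 and 8710 of all 16513 tested genes. In the 262 long genes that were not occupied the 2 DomKD libraries stood in the reverse order, with medians of 0.19 and 0.45. These 262 genes are mostly background, and DomKD replicate 2 is the library with the highest background. Its part in the values was not tested.

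**Figure D4:**
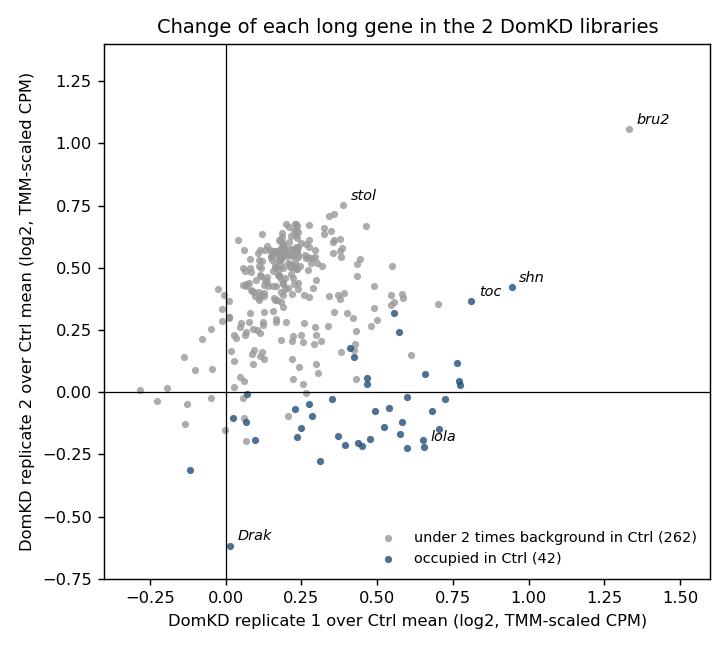
Change of each of the 304 long genes (log2 of TMM-scaled CPM over the Ctrl mean) in DomKD replicate 1 (horizontal axis) and DomKD replicate 2 (vertical axis), with 42 occupied genes in blue and 262 others in grey. The occupied genes spread along the horizontal axis around a median of 0.47 and -0.085, the others lie around 0.19 and 0.45, and bru2 stands apart in both libraries.

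Relative to the background of its own library, each of the 42 occupied genes was lower in DomKD replicate 2 than in both Ctrl libraries, and 35 of them were higher in DomKD replicate 1 than in both. In 40 genes the density was still at least 2 times background in DomKD replicate 1, and in 24 it was so in DomKD replicate 2. In 5 genes both DomKD libraries were under both Ctrl libraries. These were Drak, px, jvl, Cad87A and klar (11.9%, against 77.5% of occupied protein-coding genes), and in 0 genes were both above (against 0.133%). The fall in DomKD replicate 2 was not particular to long genes. Occupied genes under 5 kb had medians of 4.25 and 4.78 times background in Ctrl and 3.16 and 1.86 in DomKD. The 42 long genes had medians of 3.33 and 3.71, and 4.33 and 2.16. The counts of 42, 35, 40 and 24 were not taken over shorter genes. Drak, a kinase that acts on myosin light chain, had 3.33 and 3.75 times background in Ctrl and 3.18 and 1.56 in DomKD. Its log2 fold change was -0.27 (SE 0.26, adjusted p 0.464, edgeR), the lowest of the 304, and it was called lower with TMM factors from early zygotic genes (log2 fold change -0.58, adjusted p 0.042). The gene klar (klarsicht, for the transport of nuclei and lipid droplets) had 2.09 and 2.29 in Ctrl and 1.97 and 1.38 in DomKD.

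With TMM scaling, long occupied genes differed from short ones in the sign of their fitted median and of their median in DomKD replicate 1. In DomKD replicate 2 both medians were negative. Among occupied protein-coding genes, the median log2 fold change was -0.46 for 4708 genes under 5 kb, -0.31 for 732 genes of 5 to 10 kb, -0.17 for 347 of 10 to 20 kb, 0.13 for 165 of 20 to 50 kb and 0.25 for the 42 long genes. In DomKD replicate 1 the medians ran -0.31, -0.17, -0.0077, 0.37 and 0.47 from the shortest to the longest class, and in DomKD replicate 2 they ran -0.63, -0.48, -0.35, -0.16 and -0.085. The calls followed the same order. In the class under 5 kb 37.0% of the occupied genes were called lower, in that of 20 to 50 kb 1.82%, and 0 of the 42 long ones were. The genes that were not occupied had medians of 0.28, 0.20, 0.28, 0.32 and 0.34, all positive, which rose with span only from the class of 5 to 10 kb upward. These classes were set by the Ctrl values, which the comparison also uses, so that they are a description.

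The order also stood after background was taken off. The density above background was divided by the Ctrl mean, a step added after seeing the data. In DomKD replicate 1 the median ratio was 0.692, 0.787, 0.932 and 1.37 for the 4 shorter classes and 1.52 for the long genes, and in DomKD replicate 2 it was 0.368, 0.401, 0.502, 0.683 and 0.733. On this scale 37 of the 42 long genes were above the Ctrl mean in DomKD replicate 1 and 3 in DomKD replicate 2, which were shn (2.25 and 1.29), toc (2.24 and 1.14) and cic (1.76 and 1.06), the repressor Capicua. Of 165 occupied genes of 20 to 50 kb 127 were above it in DomKD replicate 1 and 15 in DomKD replicate 2. Of 4708 under 5 kb 939 and 150 were. The zero of this scale depends on the scaling. With libraries set to equal background the median log2 fold change was -0.036 for the long genes and -0.29 for all genes, and with TMM factors from early zygotic genes it was 0.091 and -0.18. Under each of these scalings, and under TMM, the median of the long genes was above that of all genes. These medians are over all 304 long genes, 262 of them not occupied, and over all tested genes. By TMM all genes not occupied had a median of 0.29 and all occupied genes had -0.41. The order of the occupied classes was not recomputed under the other scalings.

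**Figure D5:**
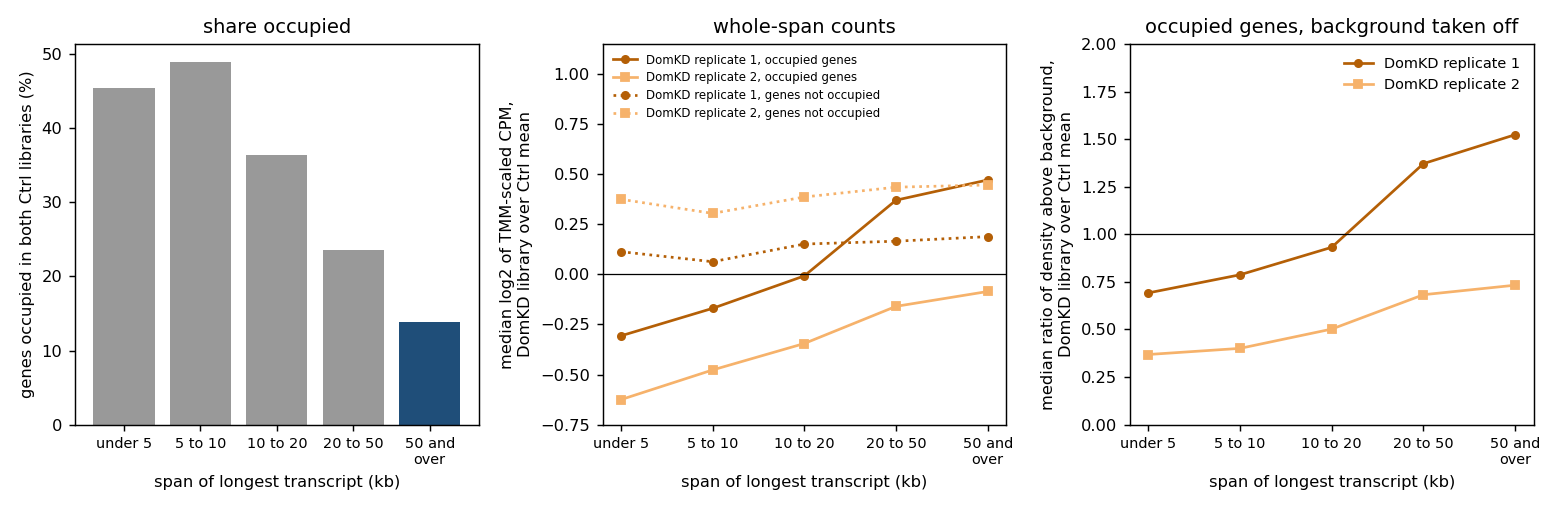
Left, share of genes occupied in both Ctrl libraries (%) by span of the longest transcript (kb), with the 304 long genes in blue. Middle, median log2 of TMM-scaled CPM of each DomKD library over the Ctrl mean, for occupied genes (solid) and genes not occupied (dotted). Right, median ratio of the density above background, DomKD library over Ctrl mean, for occupied genes. The share drops to 13.8% in the longest class, and the solid lines and the ratio climb with span in both DomKD libraries, to 1.52 and 0.733 on the right.

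By list, the long genes on patterning, transcription factor and RNA-binding lists held 1 call each, which were shn on the first and second list and bru2 on the third. The lists of adhesion molecules, cytoskeletal regulators, ion channels and signalling molecules held 0 calls in either direction. The median log2 fold change was 0.38 for patterning genes, 0.39 for ion channels, 0.35 for adhesion molecules and 0.27 for signalling molecules. The gene stol stood on no list. The libraries behind these medians differed. In DomKD replicates 1 and 2, patterning genes had medians of 0.44 and 0.29, and ion channels, of which 0 were occupied, had 0.18 and 0.54.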

How the data were processed

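Counts were taken from the table of reads per transcript that the authors deposited for the 4 Rpb3 libraries of stage 5; the other 24 samples, inputs included, were not analysed here. Per the study's methods the authors mapped trimmed reads to dm6 with snakePipes, removed duplicates, kept proper pairs and counted with featureCounts over whole transcript spans, without strand, adding a read to each transcript it overlapped. The deposited length is another column of the same table, and 0 per-sample columns were left unused. The Ensembl BDGP6 annotation held 34516 of the 34793 transcript identifiers, 34413 with an equal span, and the longest transcript stood for a gene. This annotation is of a later release than the study's, and 8 of the 277 transcripts that could not be joined span 50 kb or more, so that genes or longest spans may be missing from the 304.

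Genes with a span of 125 nt or longer and over 10 reads in all were tested with edgeR 4.0.16 (R 4.3.3), group only. Scaling on the study's Zelda targets was not repeated. Background was the mode of log2 density (bandwidth 0.1, genes above 2000 nt). Centromere-proximal regions were set by hand. Pieces needed 2000 nt and transcripts ending within 500 nt of each other. Named genes were the 15 with the highest Ctrl density, up to 8 rises and 8 falls that passed the test, the highest 2 of each of 7 lists, and the longest and shortest; others were chosen after their values were seen. The members and lists were chosen with earlier results of these data known. Alternatives were other scalings, filters, tests, transcripts, backgrounds and thresholds, a replicate block and leaving out each library.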

Additional observations from a re-analysis of the deposited data

How the results depend on the processing

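The count of occupied long genes, 42, depended on the threshold and on the genes admitted: it was 68 at 1.5 times background, 24 at 3 times and 4 among genes whose span overlaps no other gene, where fewer genes were tested, and 42 to 49 with 1 of the Ctrl libraries left out. The count of long genes called lower, 0, became 1 with TMM factors from early zygotic genes and ran from 0 to 19 without single libraries. The count called higher, 3, became 1 with those factors, 1 by the quasi-likelihood test, 0 with equal background in each library and 0 among genes whose span overlaps no other gene, and ran from 0 to 239 without single libraries. Of the 3 genes called higher, bru2 was still called under the early zygotic factors, the quasi-likelihood test and the replicate block, bru2 and shn by DESeq2 and with library size only, and 0 of the 3 with equal background or without either Ctrl library. In these fits the lone library of a group is assumed to vary like the other group. The median log2 fold change of the long genes, 0.33, became 0.091 with the early zygotic factors and -0.036 with equal background, and ran from 0.19 to 0.40 without single libraries. Without DomKD replicate 1, 10 of the 27 named long genes turned from a value above 0 that was not called to a call below 0; the ranges without single libraries were -0.22 to 0.64 for lola, -0.19 to 0.64 for hth, -0.17 to 0.56 for pyd, -0.22 to 0.44 for psq, -0.14 to 0.51 for Ten-m, -0.15 to 0.69 for sdt, -0.21 to 0.38 for Dscam1, -0.19 to 0.47 for nmo, -0.28 to 0.30 for bun and -0.21 to 0.43 for tinc. The causes were not tested.

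With a replicate block 0 long genes were lower and 1 was higher, with a median of 0.32. Deviations of same-numbered libraries had a correlation of -0.20 over 13312 genes, so that the numbers were not taken to pair the libraries; with the numbers crossed in the replicate block, an alternative added after seeing the data, 0 were lower and 3 higher. At background a 50 kb gene held between 1758 and 3248 reads, and what limits the number of calls was not tested.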
